A study of Mus musculus with 30 samples.

Results

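Bone marrow with acute myeloid leukaemia (AML) was compared between mice in which donor and recipient had received N-ethyl-N-nitrosourea (ENU), an alkylating mutagen, and mice that had received none. The comparison rests on 5 of the 30 RNA-seq libraries of the series, chosen by the exposure given in the labels: AML 1, AML 4 and AML 5 with ENU, and AML 2 and AML 3 without. All 5 came from C57BL/6 mice transplanted with Egr1+/-, Apc del/+ marrow that carried an shRNA against Trp53, so both groups share the haploinsufficiency of Egr1 and Apc and the Trp53 knockdown. The recipients were wild type, and each library is total marrow of 1 tagged mouse taken after AML had developed. AML 6, of the same genotype with ENU given to the recipient alone, was left out of the comparison and is given beside it. A further 6 libraries came from mice with myelodysplastic syndrome (MDS) that carried Egr1+/-, Apc del/+ marrow with a luciferase shRNA and had ENU on both sides. LSK cells (Lin-, Sca1+, Kit+, the compartment of stem and early progenitor cells) with the 3 engineered changes, called EAP, with and without ENU and before disease, gave 3 libraries each. The labels name 1 stage of disease for all 6 AML mice. The sources used here do not give age or sex of the mice, the ENU dose before AML, or the share of donor cells.

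ENU transfers ethyl groups to DNA bases, which are removed by direct reversal or excised, and those that remain can be copied into point mutations. Loss of Egr1, an immediate early transcription factor, of Apc, which holds beta-catenin low, and of the tumour suppressor Trp53 models losses seen in human myeloid neoplasms that follow cytotoxic therapy. AML replaces normal marrow with immature cells. The RNA of total marrow therefore holds leukaemic cells together with residual red cell precursors, neutrophils, monocytes and lymphocytes. In such bulk RNA, fewer cells of a type and less RNA per cell cannot be told apart.

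The deposited values are a normalised signal per gene, and each difference below is a difference of mean log2(value + 1). The 5 libraries held 18163291 to 21698808 recovered reads over 11275 genes, of which 11233 had a value of at least 1 in at least 2 of the 5 libraries and were tested. A gene passed at a Benjamini-Hochberg adjusted p under 0.05 in a limma fit that took its spread from all 12 marrow libraries. The median log2 difference over all tested genes was 0.03.

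The libraries of both groups differed widely among themselves. The median absolute log2 difference between AML 2 and AML 3, the pair without ENU, was 0.94 over all tested genes, and Pearson's r across genes was 0.63. Pairs within the ENU group lay at 0.42 to 0.63, and the 6 pairs across the groups at 0.40 to 0.97. Pairs of MDS libraries lay at 0.16 to 0.34. AML 1 lay at 0.21 to 0.38 from the MDS libraries, and AML 5 was nearer to AML 6 (0.36) than to AML 1 (0.60). Distances across the exposure groups thus covered the range of distances within them.

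**Figure D1:**
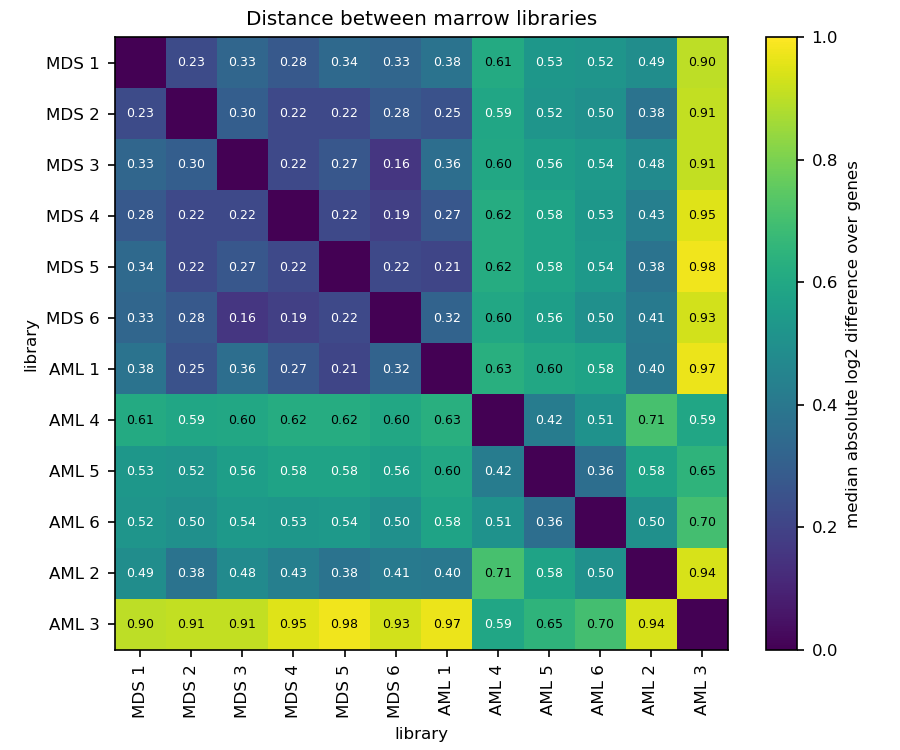
Each cell gives the median absolute log2 difference between 2 marrow libraries over all tested genes (colour scale from 0 to 1). The 6 MDS libraries and AML 1 form a block of 0.16 to 0.38, while AML 3 lies at 0.59 to 0.98 from every other library.

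Lineage genes set the AML libraries apart from each other in both groups. AML 3, labelled AML, had the B cell transcription factors Ebf1 and Pax5 at 420 and 208, against at most 9.06 and 5.93 in the other 11 marrow libraries, and Vpreb3, a pre-B cell receptor component, at 258 against at most 3.63. Myeloid genes were low in AML 3. Mpo, the myeloperoxidase of primary granules, was 30.3 where the other 4 compared libraries had 1171 to 3975, Elane (neutrophil elastase) was 7.27 against 315 to 1161, Csf1r (the receptor for macrophage colony-stimulating factor) was 10.9 against 103 to 1965, and Cd14 was 2.2 against 151 to 1051. Defining myeloid markers therefore stood near absent in 1 of the 2 libraries without ENU, against its label. In AML 3, 303 genes lay at least 8-fold below all other 11 marrow libraries and 36 at least 8-fold above. No other AML library had a gene 8-fold below all the rest.

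AML 4 and AML 5, both with ENU, carried T lineage transcripts. Cd3e, a chain of the T cell receptor complex, was 258 in AML 4 and 947 in AML 5, against 16.2 in AML 1, 9.93 in AML 2, 0.957 in AML 3 and 4.98 to 12.1 in MDS. The same libraries had the T cell factor gene Bcl11b at 155 and 213, where AML 1, 2 and 3 had 3.44, 4 and 0.383. Not all T cell markers were raised. Cd4 was 8.21 in AML 4 and 6.47 in AML 5, within the 4.24 to 11.3 of MDS. Cd8a was 42.8 in AML 4 but 6.47 in AML 5, where MDS had 2.76 to 10.3. AML 6, which was not compared, had T lineage transcripts too, with Bcl11b at 73.8 and Lck, a T cell receptor kinase, at 246 against 11.5 to 26.9 in MDS, but its Cd3e was 5.52. Myeloid markers were present in AML 4 and AML 5, with Mpo at 1171 and 3017. Among the genes highest in AML 4 over all other marrow libraries were Ccr9, a thymus homing receptor (598 against at most 15.2), Cd226 (219 against at most 4.81) and Icos (152 against at most 9.24). AML 5 had Notch1 at 1611 and its target Dtx1 at 150, against at most 380 and 6.30 elsewhere, and Hes1, another Notch target, at 145 against at most 18.5. The T lineage genes were thus not shared by the whole ENU group.

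AML 2, without ENU, had the highest Csf1r, 1965 against at most 444 in the other marrow libraries. Mecom, which encodes the haematopoietic transcription factor EVI1, was 1022 in AML 2 and at most 69.1 in the other marrow libraries. Cp (ceruloplasmin) and Cfb (complement factor B) were 342 and 259 there, against at most 11.2 and 7.98. AML 1 had no gene 8-fold above or below all other marrow libraries, and its myeloid values lay among or above those of MDS, with Cd14 at 1051 and Ly6g at 179 against 285 to 720 and 13.2 to 99.8. Each mouse therefore had marrow of a different makeup, and the exposure groups of 3 and 2 mice differ in these lineages as well as in ENU. What share of the differences below goes with lineage was not tested.

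**Figure D2:**
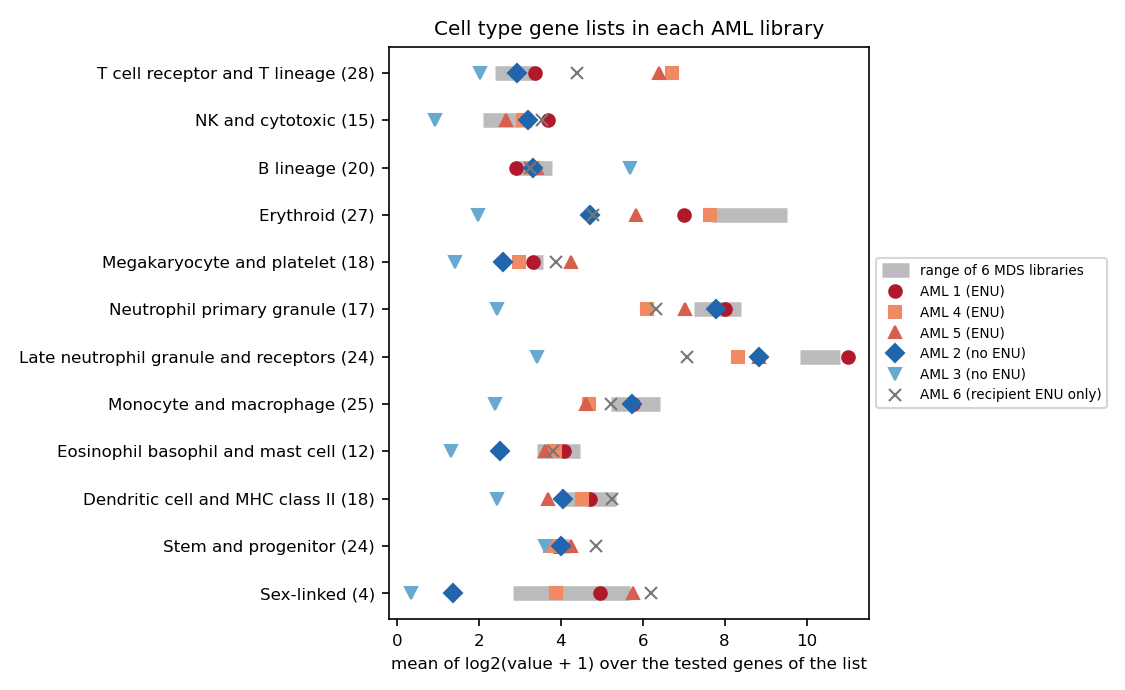
Points give the mean log2(value + 1) over the tested genes of each cell type list (number of genes in parentheses) in each AML library, and grey bars the range of the 6 MDS libraries. AML 4 and AML 5 stand out in T lineage genes, AML 3 is highest in B lineage genes and lowest in every erythroid, megakaryocyte and myeloid list, and the Y-linked list separates the groups.

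The engineered genes did not pass between the groups. Trp53 was 58.0, 26.3 and 27.0 in AML 1, 4 and 5 and 23.0 and 33.4 in AML 2 and 3, a log2 difference of 0.31 ± 0.44 (SE, limma adjusted p = 0.857). Apc was 73.7, 125 and 122 with ENU and 150 and 125 without (-0.39 ± 0.26, limma adjusted p = 0.603). Egr1 was 227, 340 and 190 with ENU and 539 and 181 without (-0.35 ± 0.62, limma adjusted p = 0.89). The groups overlapped for Trp53 and Egr1. For Apc every ENU library lay below both others, as for 6.7% of all genes, although AML 4 and AML 3 both round to 125.

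Y-linked genes separated the groups. Ddx3y, a Y-encoded RNA helicase, was 68.0, 31.7 and 84.4 with ENU and 3.46 and 0.574 without, and Kdm5d, a Y-encoded histone demethylase, was 17.3, 7.6 and 53 against 1.03 and 0.0957. Uty ran from 5.27 to 26.8 with ENU and was 0.629 and 0.0478 without, and Eif2s3y ran from 26.2 to 78.1 against 1.98 and 0.478. None of the 4 passed, with limma adjusted p from 0.0526 to 0.173. All 4 lay higher in every ENU library. In AML 6 the same 4 genes were 34.1 to 145. The sex of donor and recipient, or the mixture of their cells, therefore cannot be told apart from exposure in these 5 mice. With the mean level of these genes as a covariate, limma called no gene, 295 had an unadjusted p under 0.05, and the smallest adjusted p was 0.457. This covariate itself separated the groups and so overlaps with exposure, and the loss of calls cannot decide between them. Genes called higher with ENU in the next paragraph had a median log2 difference of 3.03 with the covariate and 3.45 without.

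Between AML with and without ENU, 32 genes were higher and 14 lower, which is 0.285% and 0.125% of the 11233 genes tested. An unadjusted p under 0.05 was reached by 1411 genes (12.6%). Without regard to p, 922 genes (8.21%) had all 3 ENU libraries above both others and 753 (6.7%) had all 3 below, and the 46 genes that passed were among them. The called genes include genes of red cell precursors (Car1, Aqp1, Epor), the iron exporter gene Slc40a1 and granulocyte genes (Mmp25, Cd33, Prss34). Those lower with ENU include the integrin gene Itga4 and the unconventional myosin gene Myo1c.

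The calls rest on a spread that was largely that of MDS marrow. The median SD of log2 values was 0.24 over the 6 MDS libraries, 0.47 over the 3 ENU libraries and 0.67 over the 2 without ENU. When the 5 compared libraries were fitted alone, limma called 0 genes, 446 (3.97%) had an unadjusted p under 0.05, and the smallest adjusted p was 0.544. The 6 AML libraries alone also gave 0 calls, with 447 genes at an unadjusted p under 0.05. edgeR's quasi-likelihood test on the recovered reads, with all 12 libraries, called 8 genes higher and 7 lower, and 7 of each were among the 46. All 46 kept their direction under every setting tried. With compared libraries left out or a pseudocount of 0.1 this was fixed in advance, because the groups of all 46 did not overlap. The fits without the low-value filter or without MDS use the same group means, so direction was fixed there too. Median-of-ratios factors near 1 left little room for a change.

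Single libraries moved the count of calls. Without AML 2, so with AML 3 alone standing for no ENU, 1653 genes were higher and 906 lower. Without AML 3 the counts were 72 and 170, of which 22 and 13 were among the 46. Without AML 1 they were 120 and 61, and without AML 4 only 10 and 4. Leaving out AML 5 gave 32 and 15, with 20 and 7 of the 46 kept. Without AML 4 and AML 5, the libraries with T lineage transcripts, 16 genes were higher and 6 lower, and 6 and 1 of the 46 were kept.

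**Figure D3:**
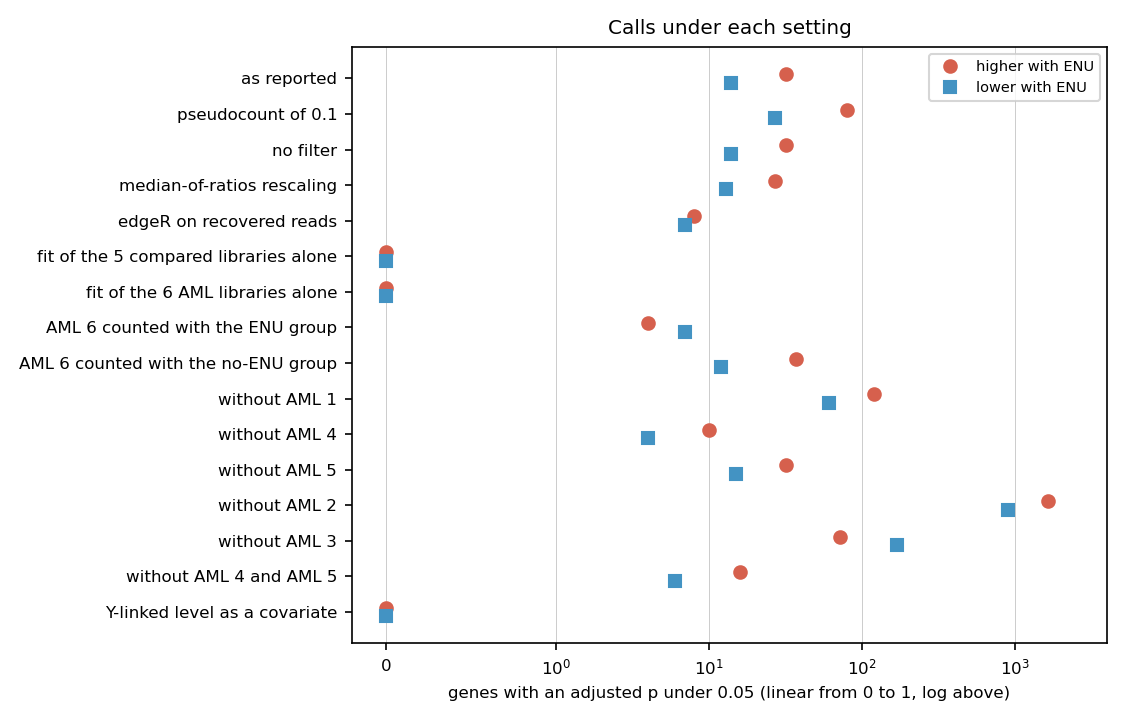
Points give the number of genes past an adjusted p of 0.05 (axis linear from 0 to 1 and logarithmic above), higher (circles) and lower (squares) with ENU, under each setting. The counts run from 0 in fits without the MDS libraries or with the Y-linked covariate to 1653 and 906 without AML 2.

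Of the 46, 8 passed whichever of the 5 libraries was left out: Abtb2, Col5a1, Dmwd, Gabbr1, Itga4, Myo1c, Slc40a1 and Tbc1d30, of which Abtb2, Dmwd and Gabbr1 are named here after their values were seen. Of the 8, Col5a1 and Slc40a1 did not pass with edgeR (adjusted p = 0.067 and 0.0549). Abtb2, an ankyrin repeat and BTB domain gene, had the smallest adjusted p. It was 83.6, 71.6 and 71.1 with ENU (mean 75.4 ± 7.1 SD, n = 3) and 4.9 and 5.93 without (mean 5.41 ± 0.731, n = 2). The values of each group lay close together, and the log2 difference was 3.58 ± 0.27 (SE, limma adjusted p = 0.000744). With edgeR the adjusted p was 0.00255, and in the fit of the 5 libraries alone it was 0.544. Abtb2 was 17.5 in AML 6, between the groups, and 43.2 to 81.2 in MDS. Gabbr1, which encodes a GABA receptor subunit, was 55.2, 102 and 53.4 with ENU and 8.31 and 4.97 without, and Dmwd was 19.8, 13.6 and 12 against 2.07 and 0.765. In AML 6 these genes were 48.6 and 37.1, on the ENU side.

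Of the genes that passed whichever library was left out, 3 were lower with ENU. Myo1c (chromosome 11, 75650504 to 75673910 in mm10), a motor that links membranes to actin, was 118, 75.3 and 87.8 with ENU and 333 and 327 without, a log2 difference of -1.83 ± 0.21 (limma adjusted p = 0.01). Without any overlap, the means were 93.8 ± 22.1 (SD, n = 3) and 330 ± 4.24 (n = 2). Itga4 (chromosome 2, 79255426 to 79333123), the alpha chain of the VLA-4 integrin by which progenitors hold to marrow stroma, was 286, 309 and 147 with ENU and 1243 and 1026 without (-2.26 ± 0.34, limma adjusted p = 0.0332). MDS lay at 373 to 624, between the groups, and AML 6 at 923, near the libraries without ENU. Tbc1d30, a gene of a Rab GTPase-activating protein, was below 1 in all 3 ENU libraries (0.546, 0.807 and 0.804) and 7.95 and 8.42 in the others (-2.42 ± 0.26, limma adjusted p = 0.00983).

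The other genes lower with ENU passed in fewer of the fits that left out a library. Mreg, which encodes the melanosome transport protein melanoregulin, was 2.84, 2.14 and 1.83 with ENU and 27.5 and 117 without, the largest fall by the naming rule (-4.16 ± 0.57, limma adjusted p = 0.0303). Tifa, an adaptor upstream of NF-kB, was 43.2, 19.6 and 21.0 against 109 and 176. The basement membrane gene Nid2 and the calcium channel subunit gene Cacnb2 were 0.57 to 1.8 with ENU and 6.15 to 23.5 without. Fam43a, Rbpms, Trim5 and Phka1 had log2 differences of -2.29, -2.25, -2.15 and -2.11. Fits that left out AML 4 lifted the adjusted p of Mreg, Tifa, Nid2, Cacnb2, Fam43a, Rbpms, Trim5 and Phka1 to between 0.0703 and 0.101, so these falls did not pass without that library. Without AML 5 the same was true of Nid2, Cacnb2, Tifa, Fam43a and Phka1, at 0.0516 to 0.0539. Rbpms reached 0.05 without AML 1, at the threshold.

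**Figure D4:**
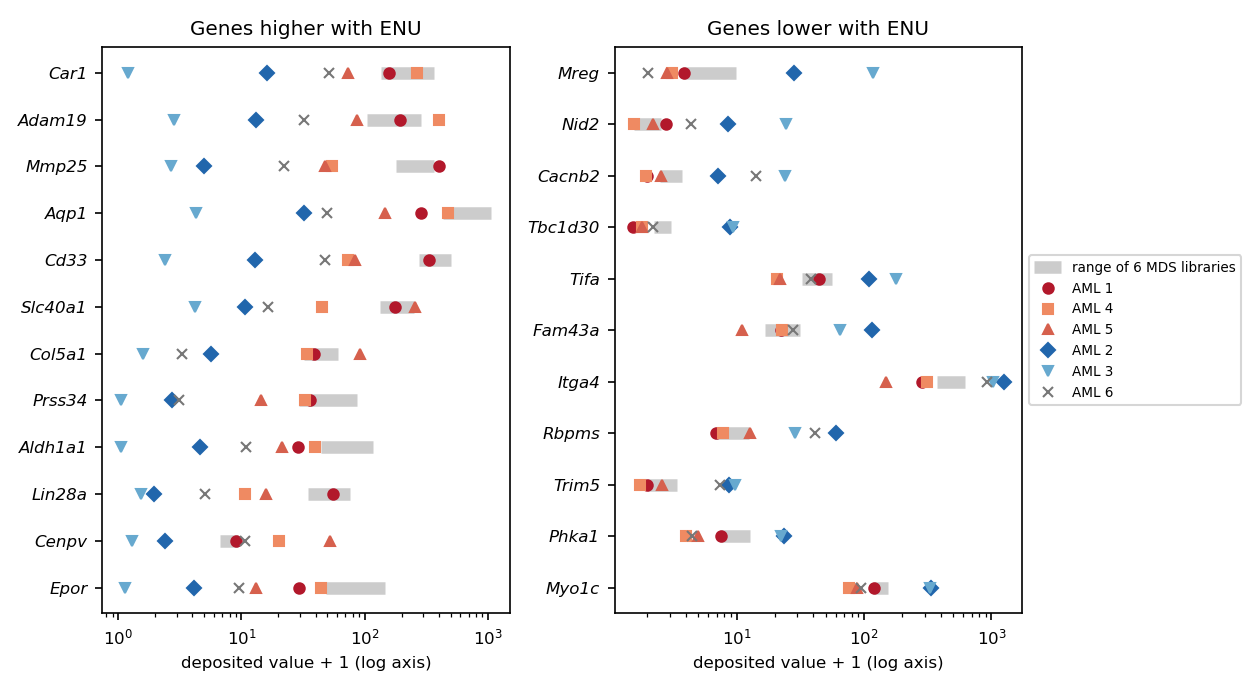
Points give the deposited value plus 1 (log axis) of the genes named by the rule and reported here in each AML library, and grey bars the range over the 6 MDS libraries. Red symbols (ENU) and blue symbols (no ENU) do not overlap for any of them, and AML 6 (cross) falls on either side or between.

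Among the lists of 10 or more genes, red cell genes had the highest share of members that lay higher in every ENU library. Of 27 erythroid genes tested, 25 had all 3 ENU libraries above both others, which is 92.6% beside 8.21% of all genes, and 3 passed. The median log2 difference of the list was 3.86 beside 0.03 for all genes. The mean log2 level of the list was 7.0 in AML 1, 7.63 in AML 4 and 5.84 in AML 5, and 4.71 in AML 2 and 1.99 in AML 3. MDS libraries lay at 7.69 to 9.51, above all 6 AML libraries, and AML 6 at 4.79, next to AML 2. The gap is widest to AML 3, and without AML 3 the list's median was 2.18, while without AML 2 it was 5.68.

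Car1 (carbonic anhydrase of red cells; chromosome 3, 14766216 to 14808368) was 158, 264 and 72.8 with ENU and 15.2 and 0.191 without. The lowest ENU value lay above both others, and the log2 difference was 5.05 ± 0.91 (limma adjusted p = 0.0485, and 0.154 with edgeR). Aqp1 (chromosome 6, 55336432 to 55348555), a water channel of the red cell membrane, was 285, 472 and 147 against 31.2 and 3.30 (4.53 ± 0.74, limma adjusted p = 0.0359). Epor (chromosome 9, 21958897 to 21963506), the erythropoietin receptor, was 28.5, 43.5 and 12.2 against 3.10 and 0.143 (3.58 ± 0.64, limma adjusted p = 0.0449). Gata1, the erythroid and megakaryocyte transcription factor, did not pass (limma adjusted p = 0.0642), with 46.6, 51.7 and 17.7 against 5.93 and 0.0957. The erythroid factor gene Klf1 stood at 52.1, 56.0 and 17.0 against 7.91 and 0.335. In each of these genes AML 4 was the highest of the compared libraries and AML 3 the lowest. None of Car1, Aqp1 and Epor passed without AML 4, with adjusted p from 0.0906 to 0.109. Car1 also missed the threshold without AML 1 and without AML 5 (0.0516 each), and Epor without AML 1 (0.0505) and without AML 3 (0.0669).

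Genes of heme synthesis and iron were also mostly higher with ENU. Of 19 tested, 13 (68.4%, beside 8.21% of all genes) lay higher in every ENU library and none lower, with a median log2 difference of 1.44. Slc40a1 (ferroportin, the iron exporter; chromosome 1, 45908068 to 45926523) passed, at 177, 43.9 and 256 against 9.61 and 3.16 (4.26 ± 0.64, limma adjusted p = 0.0332). It did not pass with edgeR (adjusted p = 0.0549). Alas2, the first enzyme of heme synthesis in red cells, stood at 809, 1198 and 344 against 130 and 8.08 and did not pass (limma adjusted p = 0.0775), nor did Fech (258, 424 and 133 against 84.0 and 12.8), which inserts the iron. The median of this list was 1.47 without AML 3, so it rested less on that library than the erythroid list did.

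Megakaryocyte and platelet genes were also mostly higher with ENU. Of 18 tested, 10 (55.6%, beside 8.21% of all genes) lay higher in every ENU library and none lower, with a median of 1.46 that was 1.01 without AML 3. Itgb3, the beta chain of the platelet fibrinogen receptor, passed, at 55.0, 75.8 and 57.5 against 12.7 and 1.87 (3.33 ± 0.53, limma adjusted p = 0.0344). Its partner Itga2b stood at 19.9, 19.1 and 62.4 against 7.91 and 2.20 and did not pass (limma adjusted p = 0.0775). AML 6 had the highest Itga2b of the AML libraries at 397.

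Neutrophil genes depended on AML 3. No member of the 17 primary granule genes (made early in neutrophil development) separated the groups, beside 8.21% of all genes higher and 6.7% lower. The list's median moved from 1.98 to -0.88 without AML 3. Of 24 late granule and receptor genes, 7 (29.2%, beside 8.21% of all genes) lay higher in every ENU library and 1 passed, with a median of 3.12 that was 0.67 without AML 3. The one that passed was Mmp25, a membrane-bound metalloprotease of neutrophils, at 399, 53.4 and 46.8 against 4 and 1.67 (4.79 ± 0.75, limma adjusted p = 0.0343). Camp, the cathelicidin of secondary granules, stood at 6761, 994 and 1286 against 245 and 24.0 (limma adjusted p = 0.0583). Summed over the list, AML 2 at 50780 exceeded AML 4 at 21301 and AML 5 at 34485, so the levels of the list's most abundant genes did not follow exposure. Cd33, a sialic acid receptor of myeloid cells, passed, at 335, 72.9 and 82.0 against 11.9 and 1.39 (4.52 ± 0.73, limma adjusted p = 0.0347).

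Of 12 eosinophil, basophil and mast cell genes, 5 (41.7%) lay higher in every ENU library and 1 (8.33%) lower, beside 8.21% and 6.7% of all genes. The list's median was 1.91, and 0.35 without AML 3. Prss34, a basophil and mast cell protease, passed, at 35.3, 32.0 and 13.3 against 1.71 and 0.0478, the last of which was a single read (limma adjusted p = 0.0332). Hdc, which makes histamine, stood at 631, 107 and 99.9 against 3.50 and 8.80 and narrowly missed the threshold (limma adjusted p = 0.0525). The receptor gene Kit was the member that lay lower, at 46.2, 41.0 and 54.1 against 81.6 and 217 (limma adjusted p = 0.0782). Monocyte and macrophage genes had 6 of 25 (24%, beside 8.21% of all genes) higher in every ENU library, and their median moved from 1.21 to -0.83 without AML 3.

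Of 28 T lineage genes tested, 14 (50%, beside 8.21% of all genes) lay higher in every ENU library, none lower, and none passed. The median log2 difference was 3.20, and 1.09 without AML 4 and AML 5. Cd3d came nearest to the threshold, at 22.8, 260 and 385 against 5.26 and 0.191 (limma adjusted p = 0.0525). Tcf7, the T cell factor, stood at 23.2, 1070 and 1207 against 11.7 and 1.10. The list summed to 5390 in AML 4 and 6674 in AML 5 but 357 in AML 1, close to the 307 of AML 2. AML 3, without ENU, summed to 579, above AML 1, although its mean log2 level was 2.03 against 3.36 in AML 1. Lck was 91.6 in AML 3, against 29.6 in AML 1 and 17.5 in AML 2. AML 6 lay between AML 3 and AML 4, with a sum of 1572. Satb1, a chromatin organiser of thymocytes named here after its values were seen, did pass, at 94.8, 278 and 459 against 16.1 and 32.1 (limma adjusted p = 0.0421), and MDS libraries had 78.2 to 126.

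B lineage genes ran the other way through AML 3. Of 20 tested, 5 (25%, beside 6.7% of all genes) lay lower in every ENU library and none higher, with a median of -1.27 that was -0.31 without AML 3. Cd79b, a signalling chain of the B cell receptor, was 22.1, 26.6 and 16.5 against 43.0 and 422, and no gene of the list passed. Of 14 stromal, osteoblast and endothelial genes, 6 (42.9%, beside 6.7% of all genes) lay lower in every ENU library at low levels, such as Sparc at 0.617 to 1.53 against 3.77 and 3.68. None of these passed.

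Stem and progenitor genes gave a median of -0.01 over 24 tested. Of these, 5 (20.8%) lay higher in every ENU library and 1 (4.17%) lower, beside 8.21% and 6.7% of all genes. Hlf, a stem cell transcription factor, passed at low values of 3.77, 2.99 and 3.53 against 0.539 and 0.287 (1.65 ± 0.30, limma adjusted p = 0.0488), and Meis1, at 7.59, 2.52 and 3.71 against 0.943 and 0.191, did not (limma adjusted p = 0.0781). Aldh1a1, a retinaldehyde dehydrogenase, passed, at 27.9, 38.3 and 20.5 against 3.64 and 0.0478 (limma adjusted p = 0.0344). Lin28a, an RNA-binding regulator of let-7 microRNAs, was 54.5, 9.64 and 14.9 against 0.943 and 0.526. Adam19 (a membrane metalloprotease), Col5a1 (a collagen chain) and Cenpv (a centromere protein) passed as well. They stood at 194, 401 and 85.4, at 37.6, 33.1 and 91.5, and at 8.08, 19.1 and 51.9 with ENU, and at no more than 12.2, 4.67 and 1.39 without. Without AML 4, the adjusted p of Adam19, Cenpv, Aldh1a1, Hlf, Mmp25, Cd33, Prss34, Itgb3 and Satb1 rose to between 0.0532 and 0.095, and none of these passed. Without AML 5, Lin28a (adjusted p = 0.0516), Itgb3 (0.0516), Satb1 (0.0523) and Hlf (0.067) did not pass, and without AML 3, Cenpv (0.0512) and Hlf (0.0656) did not.

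**Figure D5:**
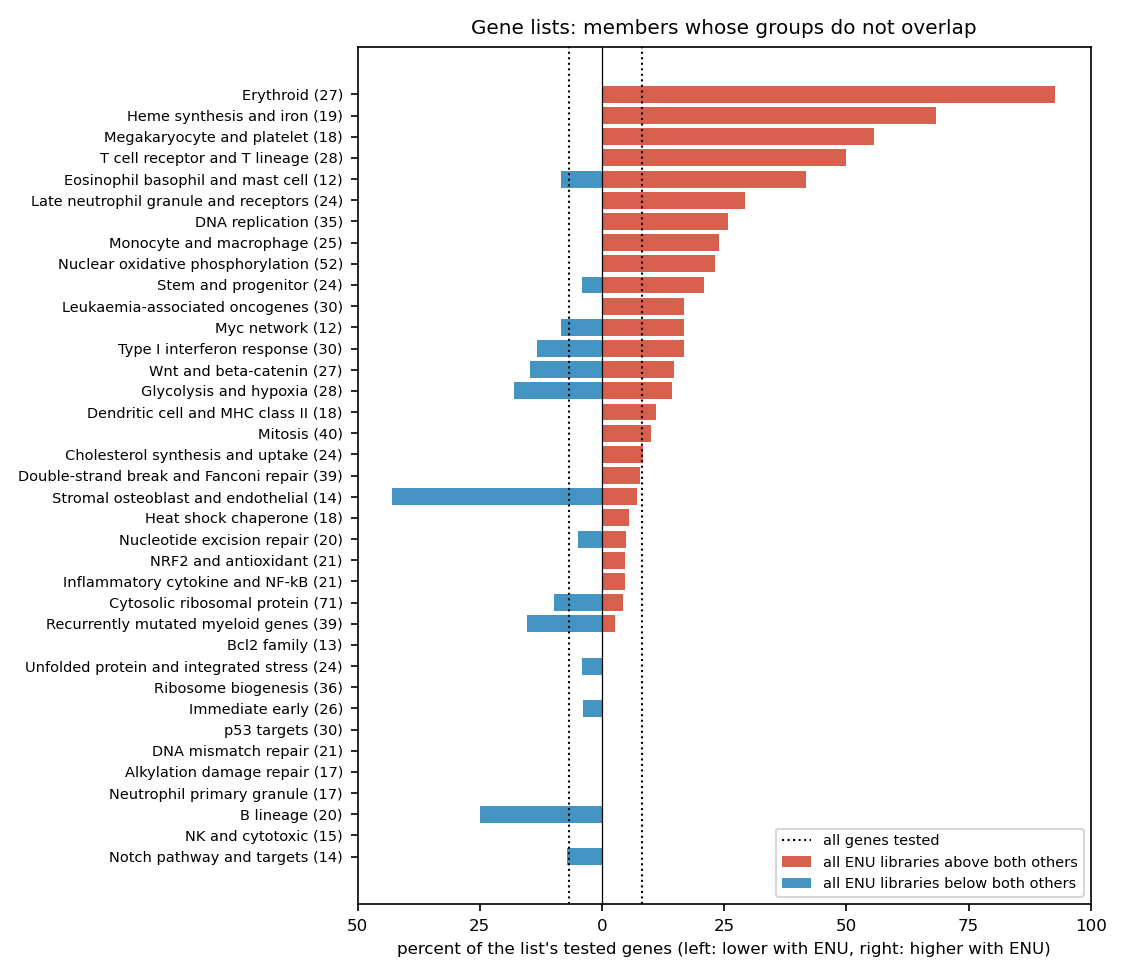
Bars give the percent of each list's tested genes (number in parentheses; lists of at least 10) whose 3 ENU values all lie above (right, red) or all below (left, blue) both values without ENU. Dotted lines mark the share over all tested genes, 8.21% higher and 6.7% lower, which erythroid genes exceed at 92.6%.

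Genes that repair alkylated DNA did not separate the groups. Of 17 tested, none lay apart in either direction, beside 8.21% of all genes higher and 6.7% lower. The median log2 difference was -0.07 (0.42 without AML 3 and -0.44 without AML 2). Mgmt, the enzyme that takes alkyl groups off guanine, was 1.2, 2.85 and 13.3 with ENU and 4.67 and 0.0478 without, the last a single read, so both groups spanned a wide range. Mpg, the glycosylase that removes alkylated purines, was 15.1, 21.4 and 24.7 against 13.9 and 16.3. None of 21 mismatch repair genes lay apart (median 0.19, 0.89 without AML 3 and -0.56 without AML 2). Of 20 nucleotide excision repair genes, 1 (5%) lay higher and 1 (5%) lower (median -0.04). Of 39 genes of double-strand break and Fanconi repair, 3 (7.69%) lay higher and none lower. Their median was -0.03 (0.62 without AML 3 and -0.58 without AML 2). These shares were near or below those of all genes. No repair gene passed.

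None of 30 p53 target genes lay apart, beside 8.21% of all genes higher and 6.7% lower, and their median was 0.07. Cdkn1a, the cell cycle inhibitor induced by p53, was 130, 19.5 and 10.5 with ENU and 55.8 and 111 without. Mdm2, which degrades p53, was 250, 122 and 101 against 123 and 135. AML 1 had the highest Cdkn1a, Mdm2 and Trp53 of the 5 libraries, and AML 4 and AML 5 had the lowest Cdkn1a and Mdm2, so the ENU group held both ends of the order.

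Among proliferation and metabolism lists, 9 of 35 DNA replication genes (25.7%, beside 8.21% of all genes) lay higher in every ENU library and none lower, with a median of 0.53 that was 1.18 without AML 3 and -0.21 without AML 2. Mitosis genes had 4 of 40 apart (10%, near the 8.21% of all genes). In both lists AML 2 was the lowest AML library, with a mean log2 level of 5.44 and 5.65, while AML 3 at 6.75 and 7.20 lay within or above the ENU libraries. Of 52 nuclear genes of oxidative phosphorylation, 12 (23.1%, beside 8.21% of all genes) lay higher. Their list's median was 0.21, and 0.51 without AML 3 and -0.02 without AML 2. Of 71 cytosolic ribosomal protein genes, 3 (4.23%) lay higher and 7 (9.86%) lower, beside 8.21% and 6.7% of all genes (median -0.09). Ribosome biogenesis genes had 0 of 36 apart. No gene of these lists passed. Nor did any gene of the interferon, inflammatory cytokine, immediate early, glycolysis, cholesterol, antioxidant, unfolded protein, heat shock, Wnt, Myc, Notch or Bcl2 lists, or of the lists of NK, plasma cell, dendritic cell, clustered histone, mutated myeloid and leukaemia oncogene genes.

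MDS marrow, which had ENU on both sides but a luciferase shRNA, was set beside the called genes. Its median lay nearer to the ENU mean than to the mean without ENU for 30 of the 32 genes higher with ENU and for all 14 lower, beside 67.9% of all tested genes. These libraries entered the fit that made the calls, so the count is a description. AML 6, exposed through the recipient alone, lay nearer to the ENU mean for 15 of 32 higher genes (46.9%) and 9 of 14 lower genes (64.3%), beside 51.8% of all tested genes. Its values for Car1, Aqp1 and Epor were 50.3, 48.3 and 8.57, between the groups.

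In EAP LSK cells before disease, 38 of the 46 genes were measured, and 20 (52.6%) differed between ENU and no ENU in the direction seen in AML, beside 52.3% of all 10069 shared genes. In 8 of the 38 the LSK groups did not overlap, each time in the direction seen in AML, and in none in the opposite direction. These shares of 21.1% and 0 stand beside 7.52% and 5.16% of the 10069 shared genes. The Y-linked genes ran the same way in LSK cells. Of 4, 3 lay higher in every ENU library, beside 6.63% of all LSK genes, with a median log2 difference of 0.94. Sex, or the mixture of donor and recipient cells, therefore cannot be told apart from exposure in the LSK libraries either. Car1 was 173, 232 and 354 in LSK cells with ENU and 90.7, 60.9 and 71.4 without, Aqp1 was 29.8, 32.7 and 46.0 against 16.0, 17.6 and 12.4, and Aldh1a1 was 21.9, 30.7 and 35.6 against 2.05, 8.03 and 14.2. Of the 20 erythroid genes in the LSK table, 6 lay higher in every ENU library and none lower, beside 6.63% of all LSK genes, with a median log2 difference of 0.53. Of 16 megakaryocyte genes 6 lay higher and 1 lower, the last beside 6.01% of all LSK genes. Such shifts in LSK cells were not particular to these 2 lists. Of 71 cytosolic ribosomal protein genes, 34 lay higher and none lower (median 0.74). Of 19 monocyte and macrophage genes, 7 lay higher and none lower (median 0.61). The LSK table was normalised apart from the marrow table, and the labels of EAP 1 conflict, since its transplant field alone names wild type donor marrow. Without EAP 1, Car1 and Aqp1 in LSK cells without ENU were still 71.4 and 17.6 at most.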

How the data were processed

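RNA was taken with TRIzol and sequenced after TruSeq Stranded mRNA preparation, per the labels' protocols. bcl2fastq, FastQC, TopHat, SAMtools, edgeR and the mm10 build are named, without versions, per the submitters' processing notes. The sources used here do not give the counting program, annotation or library scaling. Both tables hold 1 value per gene and library. The deposited marrow and LSK values are a normalised signal per gene, not counts. The test had been planned for CPM, but totals over the marrow libraries ran from 803746 to 1118648, so the values are not plain CPM. The same log-scale test was kept. Among marrow values, 99.99 to 100% were whole multiples of 1 read, within 0.05 of a read, which gave 17341986 to 21698808 reads per library. The LSK table showed no such step, so its depth is unknown.

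Of 11430 marrow rows, 155 that repeated a gene under an alias were merged, which left 11275 genes, and 4 names stood on 2 rows. Positions are from GENCODE M21 (mm10) and were found for 11230 genes.

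Groups came from the labels. limma 3.58.1 in R 4.3.3 (eBayes with trend) was fitted to log2(value + 1) of all 12 marrow libraries in 4 groups, since 3 against 2 libraries alone leave a poor estimate of spread. The fold scale understates changes of low genes. The threshold was a two-sided Benjamini-Hochberg adjusted p of 0.05 over all genes tested. The results were recomputed with median-of-ratios scaling, without the low-value filter, with a pseudocount of 0.1, with edgeR 4.0.16 (quasi-likelihood) on the recovered reads, with other sets of libraries and with each library left out. A Y-linked covariate and a fit without AML 4 and AML 5 were added after seeing the data. Libraries of different mice are the replicates. Besides the engineered genes, up to 12 passing genes per direction were named by size of change, where the higher group averaged 5 or more and the groups were apart, and up to 4 members per list by smallest p. Some genes that the rule selects are left out. Genes highest in 1 library, lineage markers and a few others were named after their values were seen. Of 1088 entries in 40 gene lists, 971 matched the table. Some genes belong to more than 1 list. The comparison, members and lists were chosen with earlier results of these data known. The marrow RNA-seq was unpaired across groups, and stromal libraries were not used here.

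On simulated data with the spread of the 12 libraries, the AML comparison with and without ENU run on 11233 genes recovered 32% of 50 genes changed by 1 on the log2 scale, 56% at 2, 90% at 4 and 92% at 6, with 4 of 11033 unchanged genes called. The simulation gave all groups 1 spread, which the real groups do not share. Figures were drawn with matplotlib 3.10.9 under Python 3.11.15.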

Additional observations from a re-analysis of the deposited data

Results flagged for a closer look

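On the deposited values, Egr1 in MDS marrow stood apart in a single library. MDS 5 was at 597 where the other 5 MDS libraries lay at 135 to 306. Its gap to the nearest of them was 0.630 of the group's range, just above the limit of 0.625 for 6 values. On the log2 scale used elsewhere the gap is a smaller part of the range, under that limit. Chance flags about 1 in 20 such groups if values are normally distributed. MDS 5 entered the fit of spread for the AML comparison, in which Egr1 did not pass (limma adjusted p = 0.89).

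AML 6, which the comparison did not use, had Kit, the receptor for stem cell factor, at 375. The 5 compared AML libraries lay at 41.0 to 217 and MDS at 68.8 to 82.1. It also had the highest Angpt1 (angiopoietin 1) at 348, against at most 18.5 in the other marrow libraries. With 1 library of this exposure there is no spread to set these values against.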

How the results depend on the processing

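The counts of 32 genes higher and 14 lower kept within 1.5-fold without the filter on low values (32 and 14), with median-of-ratios scaling (27 and 13) and with AML 6 counted without ENU (37 and 12, although only 14 and 4 of these were among the 46). They moved to 80 and 27 with a pseudocount of 0.1, to 8 and 7 with edgeR, to 4 and 7 with AML 6 counted with ENU, and to 0 and 0 in the fits of the 5 compared libraries or of the 6 AML libraries alone. Leaving out 1 library gave 10 to 1653 genes higher and 4 to 906 lower. Of the settings chosen after seeing the data, leaving out AML 4 and AML 5 gave 16 and 6, and the Y-linked covariate gave 0 and 0. All 46 genes kept their direction in every setting. This was fixed in advance where compared libraries were left out or the pseudocount was 0.1, since their groups did not overlap. It was also fixed without the filter and in the fits without MDS, which use the same group means. Median-of-ratios factors near 1 left little room for a change. The fits without MDS have fewer libraries and a wider spread. The Y-linked covariate overlaps with exposure, so its fit cannot decide between them. The cause of the other shifts was not tested. No paired analysis was possible because the compared groups share no replicate number. Where 1 library without ENU is left out, the lone library is assumed to vary like the other groups. Depth was similar in all marrow libraries, and values near 0.05 rest on a single read.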
